A study of Mus musculus with 14 samples.

Results

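The visual cycle and retinoid transport genes described here are 9 genes of the mouse retinal pigment epithelium (RPE), listed by name for their known role, with earlier results of these data known: Rpe65, Lrat, Rdh5, Rdh10, Rdh11, Rlbp1, Rgr, Stra6 and Ttr. They are 9 of the 42687 genes counted, and all 9 passed the filter on low counts in every comparison. The RPE is the pigmented cell layer behind the photoreceptors. When a photoreceptor opsin absorbs light, its retinal is isomerised from the cis to the all-trans form, leaves the opsin and is reduced to all-trans-retinol in the photoreceptor. The RPE takes up this retinol, and retinol from the blood, turns it into a retinyl ester, isomerises the ester to cis-retinol, oxidises that to cis-retinal and returns it to the photoreceptors, a loop known as the visual cycle.

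The study deleted Clic4, a chloride intracellular channel protein gene, in the RPE and sequenced poly(A) RNA from the RPE of 14 male mice of the C57BL/6J background at 3 months of age, pooling both eyes of a mouse into 1 library. KO mice were Best1-Cre+/-;Clic4f/f, in which the RPE-selective Best1 promoter drives Cre and both Clic4 alleles are floxed. The mice formed 3 sets that shared no library, each with KO mice of its own: 3 KO and 3 wild-type (WT) mice, 2 KO and 2 Ctrl mice (Clic4f/f, floxed alleles without Cre), and 2 KO and 2 CreCtrl mice (Best1-Cre+/-, Cre without floxed alleles). The question of each comparison was what differed between RPE without Clic4 and control RPE of the same set. Each control genotype was measured in a single set, and effects of genotype and of set on the controls therefore cannot be told apart.

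The promoter sequences are shown because all 9 genes were higher in KO than in WT. RefSeq promoter windows (GRCm38.p6) were matched by symbol for 7 of the 9 genes, with 11 windows in all, and not for Rdh10 and Ttr. The 250 bases before the start are printed for 4 of them, 5′ to 3′ on the strand of the gene: the isomerase gene Rpe65, the acyltransferase gene Lrat, which had the largest rise of the 9 against WT, and the retinoid-binding genes Rlbp1 and Rgr. Capitals mark matches, read on either strand, to 2 motifs. The first is TAATCC, the core that homeodomain factors of the OTX and CRX type bind. The second is CACATG, an E-box that MITF can bind. The palindromic E-box CACGTG was also searched.
Rpe65, chr3:159598931-159599180, plus strand: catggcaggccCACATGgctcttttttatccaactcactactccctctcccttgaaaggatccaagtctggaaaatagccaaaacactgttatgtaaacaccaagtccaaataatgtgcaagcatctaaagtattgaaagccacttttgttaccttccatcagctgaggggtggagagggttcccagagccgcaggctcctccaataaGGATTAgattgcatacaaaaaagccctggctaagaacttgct
Lrat, chr3:82903975-82904224, minus strand: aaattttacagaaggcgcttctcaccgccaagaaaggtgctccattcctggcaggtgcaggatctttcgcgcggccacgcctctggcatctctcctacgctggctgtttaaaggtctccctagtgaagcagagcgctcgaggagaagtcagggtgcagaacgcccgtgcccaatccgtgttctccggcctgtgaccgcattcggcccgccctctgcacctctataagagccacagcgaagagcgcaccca
Rlbp1, chr7:79387028-79387277, minus strand: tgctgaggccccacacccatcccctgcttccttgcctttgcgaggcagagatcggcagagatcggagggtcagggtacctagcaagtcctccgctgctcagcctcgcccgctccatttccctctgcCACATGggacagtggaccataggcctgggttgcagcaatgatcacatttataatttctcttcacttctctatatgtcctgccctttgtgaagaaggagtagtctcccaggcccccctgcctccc
Rgr, chr14:37049015-37049264, minus strand: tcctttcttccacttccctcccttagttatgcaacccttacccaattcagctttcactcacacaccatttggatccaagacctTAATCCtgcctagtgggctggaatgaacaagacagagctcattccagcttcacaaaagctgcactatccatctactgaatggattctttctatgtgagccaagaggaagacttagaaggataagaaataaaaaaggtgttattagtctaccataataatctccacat
TAATCC or its complement was found in the windows of Rpe65 (42 to 37 bases before the start) and Rgr (167 to 162 bases before it), and in 6.25% of all 32851 windows of that length. CACATG or its complement was found in Rpe65 (239 to 234 bases before the start) and Rlbp1 (124 to 119 bases before it), and in 12.3% of all windows. CACGTG was found only in Rdh11, 2 times in 1 of its 2 windows, and in 6.02% of all windows. Lrat, Rdh5 and Stra6 held none of the 3 motifs in these windows. These are matches of letters, and binding was not measured.

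The deposited counts of a library summed to between 9828293 and 32384166, with the lowest totals in WT (9828293 to 12363580). Clic4 itself stood at 240 to 249 CPM (counts relative to the library total, TMM-scaled within a set) in WT and at 17.9 to 32.6 CPM in the KO libraries of that set. It stood at 59.4 to 69.2 CPM in Ctrl against 9.40 to 32.7 CPM in KO, and at 86.5 to 109 CPM in CreCtrl against 13.2 to 30.4 CPM in KO, so that every KO library was below every control library of its set. The edgeR test gave Clic4 a log2 fold change of -3.32 (adjusted p = 3.33e-05) against WT and -2.16 (adjusted p = 0.0132) against CreCtrl. Against Ctrl it was -1.61 (standard error 0.58, adjusted p = 0.333), which did not pass. All 10 RPE marker genes reached 1 CPM in every library, although Best1 itself, whose promoter drives Cre, reached only 1.19 to 5.94 CPM. The list was Best1, Otx2, Mitf, Slc16a8, Trpm3, Tyrp1, Tyr, Pmel, Krt18 and Ezr, of which Mitf, Tyrp1, Tyr and Pmel are also melanocyte genes. On the TMM scale of all 14 libraries, the RPE markers summed to 3232 to 3605 CPM in WT, 7000 to 8436 in Ctrl, 6843 to 7923 in CreCtrl and 8512 to 10164 in the 7 KO libraries. Fibroblast markers, 9 of 10 of them at 1 CPM or more in every library, summed to 7542 to 7671 CPM in WT, 1246 to 2374 in Ctrl, 1316 to 2695 in CreCtrl and 124 to 742 in KO. The WT libraries thus stood apart from the other 11 in both lists.

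The 9 genes together took 6.91 to 7.36% of all counts in each of the 7 KO libraries, whichever set the library came from. The control libraries of the 3 sets differed: the share was 1.81, 2.18 and 2.76% in WT, 5.18 and 4.69% in Ctrl, and 6.21 and 5.67% in CreCtrl. By group, it was 2.25 ± 0.476% in WT and 7.08 ± 0.241% in its KO libraries (SD, n = 3 each), 4.94 ± 0.345% in Ctrl and 7.05 ± 0.167% in its KO libraries, and 5.94 ± 0.382% in CreCtrl and 7.07 ± 0.226% in its KO libraries (SD, n = 2 each). No KO library overlapped a control library of any set in this share. Ttr made up 34.1 to 54.3% of the members' counts in a library. Without Ttr, the other 8 genes took 1.16 ± 0.170% in WT, 2.99 ± 0.149% in Ctrl and 2.90 ± 0.435% in CreCtrl, against 3.61 ± 0.101, 4.11 ± 0.227 and 4.14 ± 0.206% in the KO libraries of those sets in the same order. In these bulk samples, fewer RPE cells and less RNA per RPE cell cannot be told apart.

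**Figure D1:**
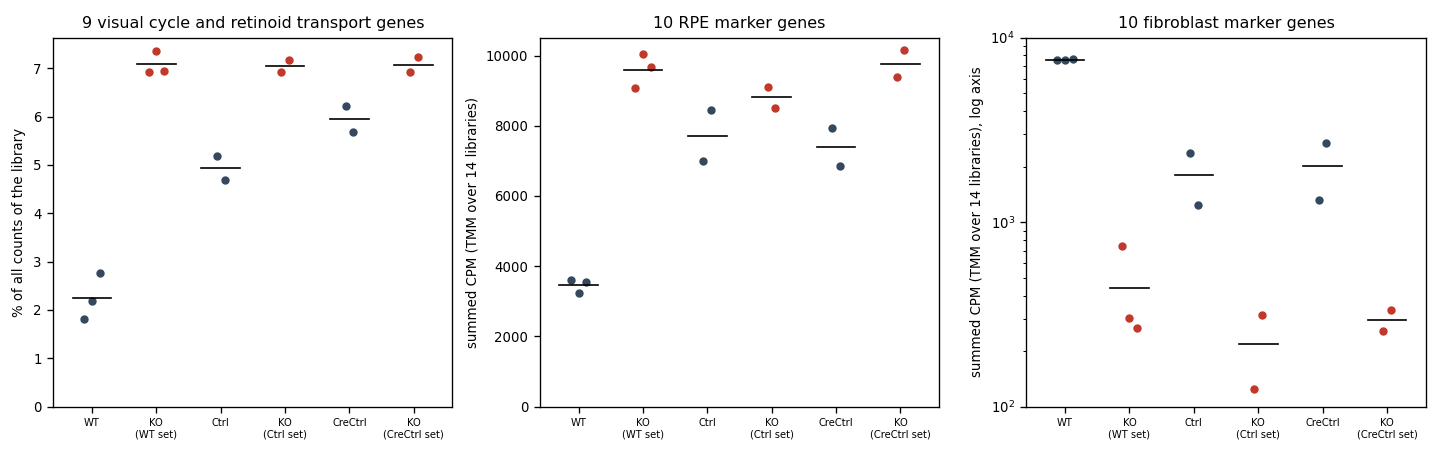
Share of all counts taken by the 9 visual cycle and retinoid transport genes (left, in % of the library), summed level of 10 RPE markers (middle, CPM) and of 10 fibroblast markers (right, CPM on a log axis). Each point is a library, bars are group means, KO libraries are red and controls dark. The 7 KO libraries sit between 6.91 and 7.36% in the left panel, while WT, Ctrl and CreCtrl sit at different levels below them, and the RPE markers follow the same order of WT below the other controls.

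Of the esterification and isomerisation enzymes, Lrat (ENSMUSG00000028003, chr3:82892579-82903973, minus strand, GRCm38) encodes lecithin retinol acyltransferase, which makes the retinyl esters. It stood at 274, 343 and 395 CPM in WT and at 2019, 2312 and 2297 CPM in the KO libraries of that set. It stood at 1342 and 2161 CPM in Ctrl against 2853 and 2761 CPM in KO, and at 1903 and 1149.5 CPM in CreCtrl against 3119 and 4201 CPM in KO. WT was far below every other library. Within each set every KO library was above every control library, as for 8.33% of the genes tested in all 3 sets. The log2 fold change was 2.71 (standard error 0.17, adjusted p = 3.16e-05) against WT, 0.68 (0.33, adjusted p = 0.552) against Ctrl and 1.26 (0.30, adjusted p = 0.0364) against CreCtrl.

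Rpe65 (ENSMUSG00000028174, chr3:159599175-159625321, plus strand) encodes the isomerohydrolase that turns retinyl esters into cis-retinol. Its level was 1234, 1294 and 1749 CPM in WT and 4655, 5043 and 5019 CPM in the KO libraries of that set. It was 2958 and 3319 CPM in Ctrl against 6336 and 3788 CPM in KO, and 4439 and 3271 CPM in CreCtrl against 5299.7 and 6761 CPM in KO. The groups did not overlap within any set, with KO higher, as for 8.33% of the genes tested in all 3 sets. However, the KO libraries of the Ctrl set lay further apart from each other than the lower of them lay from Ctrl. Against WT the log2 fold change was 1.78 (standard error 0.16, adjusted p = 0.000108). Against Ctrl it was 0.69 (0.36, adjusted p = 0.599) and against CreCtrl 0.65 (0.26, adjusted p = 0.113), neither of which passed the test.

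The list holds 3 retinol dehydrogenase genes. Rdh5 (ENSMUSG00000025350, chr10:128913593-128922888, minus strand) encodes the main cis-retinol dehydrogenase of the RPE, and it was at 1616, 1627 and 1799.9 CPM in WT against 4591, 5099.6 and 4434 CPM in KO. It was at 3113 and 3336 CPM in Ctrl against 4581 and 6342 CPM in KO, and at 3225.5 and 2804.5 CPM in CreCtrl against 4153 and 3582 CPM in KO. Its log2 fold change was 1.49 (standard error 0.13, adjusted p = 7.85e-05) against WT, 0.76 (0.32, adjusted p = 0.442) against Ctrl and 0.36 (0.22, adjusted p = 0.26) against CreCtrl. Rdh5 shares 720 exonic bases with Bloc1s1 on the same strand, but Bloc1s1 had few counts, 21 in its lowest library, where Rdh5 had 17479 to 110327 over the libraries.

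Rdh10 (ENSMUSG00000025921, chr1:16105774-16133734, plus strand) encodes a retinol dehydrogenase that acts on all-trans- and cis-retinol, and it rose from 458, 510.1 and 719 CPM in WT to 2573, 2639.5 and 2678 CPM in KO. It was at 2652 and 2923 CPM in Ctrl against 3805 and 3198 CPM in KO, and at 2347 and 1929 CPM in CreCtrl against 3642 and 4450.2 CPM in KO. The log2 fold change was 2.23 (standard error 0.18, adjusted p = 6.56e-05) against WT and 0.92 (0.23, adjusted p = 0.0399) against CreCtrl, and it was 0.33 (0.29, adjusted p = 0.818) against Ctrl, the smallest of the 9 genes there. Rdh11 (ENSMUSG00000066441, chr12:79174337-79192293, minus strand), another retinol dehydrogenase gene, was the least abundant member at 37.5, 38.6 and 56.5 CPM in WT and 184, 176 and 214 CPM in KO. It was at 152 and 246 CPM in Ctrl against 274 and 303 CPM in KO, and at 131 and 95.03 CPM in CreCtrl against 185 and 238 CPM in KO. It rose by 2.11 on the log2 scale against WT (standard error 0.18, adjusted p = 8.04e-05) and by 0.90 against CreCtrl (0.22, adjusted p = 0.036), while its value against Ctrl was 0.53 (0.30, adjusted p = 0.631). All 3 dehydrogenase genes had every KO library above every control of its set, as did 8.33% of all genes, but as a share of all counts Rdh5 overlapped in the CreCtrl set (0.319 to 0.399% in KO and 0.310 to 0.339% in CreCtrl).

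Rlbp1 and Rgr encode proteins of the RPE that bind retinal. Rlbp1 (ENSMUSG00000039194, chr7:79374870-79387048, minus strand) encodes CRALBP, the cellular retinaldehyde-binding protein that carries cis-retinoids. It was at 1850.1, 2479 and 2748 CPM in WT against 5728, 6491.5 and 6118 CPM in KO, the smallest rise of the 9 genes in that set (log2 fold change 1.37, standard error 0.17, adjusted p = 0.000425). It was at 3845 and 3699 CPM in Ctrl against 5829 and 5241 CPM in KO (0.55, standard error 0.29, adjusted p = 0.599). It was at 4046 and 2751 CPM in CreCtrl against 5499 and 6426 CPM in KO (0.81, standard error 0.26, adjusted p = 0.0713). The control groups and their KO groups did not overlap, with KO higher, as for 8.33% of the genes tested in all 3 sets. The values of the last 2 comparisons did not pass the test.

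Rgr (ENSMUSG00000021804, chr14:37034909-37048964, minus strand) encodes an opsin of the RPE that binds all-trans-retinal and photoisomerises it. It was at 3141, 3397 and 4066 CPM in WT and at 15586, 16288 and 16936 CPM in KO (log2 fold change 2.20, standard error 0.15, adjusted p = 3.53e-05). It was at 10735 and 13794 CPM in Ctrl against 18561 and 16652 CPM in KO (0.52, standard error 0.35, adjusted p = 0.734), and at 12708 and 10196 CPM in CreCtrl against 17422 and 20017 CPM in KO (0.71, standard error 0.25, adjusted p = 0.0883). The Ctrl and CreCtrl libraries were thus nearer to the KO libraries than WT was. Rlbp1, Rgr and Rdh10 are also known from Müller glia. Of the 5 Müller glia markers, 2 reached 1 CPM in every library, their sum was 1062 to 1366 CPM in WT, 2018 to 2428 in Ctrl, 1355 to 1796 in CreCtrl and 1990 to 2648 in KO, and nearly all of it came from Glul (1042 to 2629 CPM). The other 4 were low, with Aqp4 at 0.0669 to 30.4, Slc1a3 at 1.23 to 42.2, Abca8a at 0.602 to 31.0 and Gpr37 at 0 to 4.09 CPM.

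The transport genes are Stra6 and Ttr. Stra6 (ENSMUSG00000032327, chr9:58063788-58153996, plus strand) encodes the membrane receptor that takes up retinol from its plasma carrier, RBP4. It was at 488, 749 and 919 CPM in WT against 2207, 2415 and 2306 CPM in KO (log2 fold change 1.68, standard error 0.22, adjusted p = 0.000554). It was at 1431 and 1978 CPM in Ctrl against 2361 and 2837 CPM in KO (0.61, standard error 0.31, adjusted p = 0.576), and at 1714 and 1246 CPM in CreCtrl against 2250.3 and 2459 CPM in KO (0.67, standard error 0.23, adjusted p = 0.0819). The groups of each set stayed apart, with KO higher, as for 8.33% of the genes tested in all 3 sets. WT varied widely (719 ± 217 CPM, SD, n = 3).

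Ttr (ENSMUSG00000061808) encodes transthyretin, which binds RBP4 and thyroxine and is made in large amounts by the RPE. It was at 7479.5, 9489 and 13287 CPM in WT against 36924, 41052 and 35493 CPM in KO (log2 fold change 1.91, standard error 0.22, adjusted p = 0.000299). It was at 20927 and 16283 CPM in Ctrl against 27667 and 33371 CPM in KO (0.71, standard error 0.38, adjusted p = 0.611). In the CreCtrl set it was at 28575 and 27836 CPM in CreCtrl against 30330 and 33041 CPM in KO (0.17, standard error 0.25, 95% interval -0.42 to 0.75, adjusted p = 0.65). Ttr was the member with the smallest value in that set, and the sign there depended on the scaling: as a share of all counts, without TMM factors, it was 3.00 to 3.08% in CreCtrl and 2.92 to 2.94% in KO, a log2 fold change of -0.055.

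**Figure D2:**
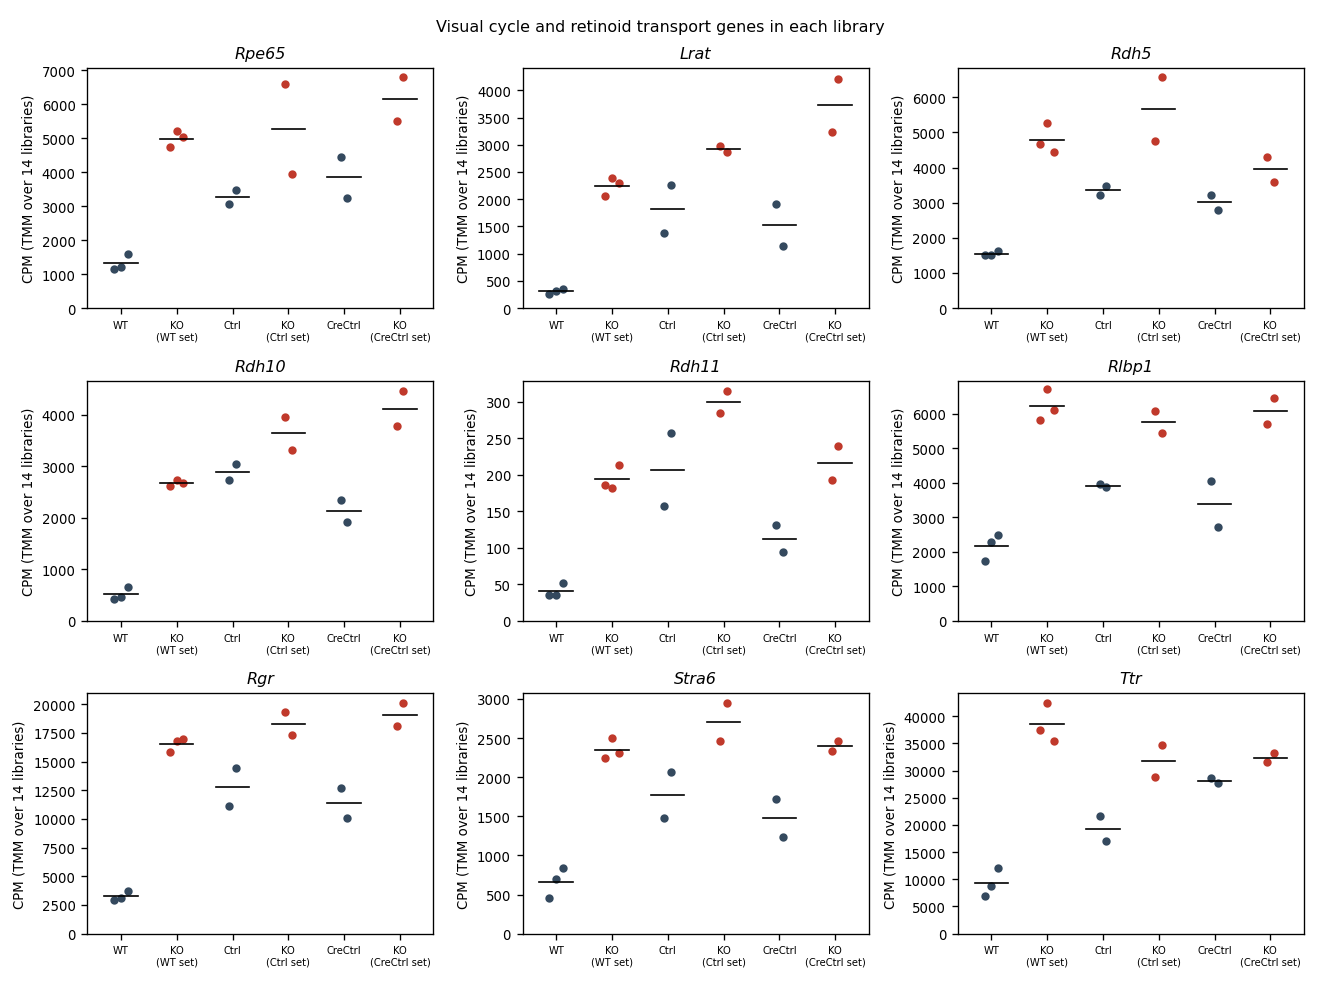
Level of each of the 9 genes in every library, in CPM scaled with TMM factors over all 14 libraries. Each point is a library, bars are group means, KO libraries are red and controls dark, and each axis starts at 0. WT is the lowest group for all 9 genes, and Ctrl and CreCtrl mostly lie between WT and the KO libraries. For Rdh10, however, both Ctrl libraries (2739 and 3053 CPM) lie above the KO libraries of the WT set. For Rdh11, Ctrl replicate 2 (257 CPM) lies above those KO libraries (182 to 214 CPM). For Lrat, Ctrl replicate 2 (2257 CPM) lies above KO replicate 1 of the WT set (2051 CPM). For Rpe65, CreCtrl replicate 1 (4443 CPM) lies above KO replicate 2 of the Ctrl set (3933 CPM). For Ttr the CreCtrl libraries lie close to their KO libraries and fall above them by share of all counts.

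Against WT, all 9 genes were called higher in KO (adjusted p under 0.05 in the edgeR quasi-likelihood test, 15428 genes), by 1.37 (Rlbp1) to 2.71 (Lrat) on the log2 scale. Of all genes tested, 16.1% were called higher. The median log2 fold change was 1.91 over the 9 genes and -0.08 over all genes. DESeq2 also called all 9 higher, where it called 14.5% of its genes higher. Every KO library was above every WT library for 9 of 9 genes, as for 23.7% of all genes. The libraries were also scaled to the geometric mean of the RPE marker counts, of which 8 of 10 genes were called higher against WT. All 9 genes were then still called higher, by 0.44 (Rlbp1) to 1.78 (Lrat) with a median of 0.99. On that scale 454 of 15428 genes were called higher, and the median of all genes was -1.02. Each marker weighed equally in that mean, including Best1 at 1.19 to 5.94 CPM and those that are also melanocyte genes. The fibroblast list fell at the same time (10 of 10 markers called lower, median -4.32). Called lower as well were 7 of 8 endothelial, 7 of 8 myeloid and 5 of 5 erythrocyte markers. The remaining myeloid marker was called higher. The part of these lists in the change of the 9 genes was not tested.

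Against Ctrl, no member was called by edgeR, which called 0% of its 15287 genes higher, nor by DESeq2, which called 0.0521% higher. At an unadjusted p under 0.05, edgeR again gave 0 of 9 genes, against 0.713% of all genes higher. Clic4, the deleted gene, was not called against Ctrl by edgeR either (adjusted p = 0.333). All 9 estimates were positive, from 0.33 (Rdh10) to 0.76 (Rdh5), with a median of 0.61 beside 0.01 over all genes. Every KO library was above both Ctrl libraries for 9 of 9 genes, as for 18.2% of all genes. The intervals were wide, with that of Rdh5 from -0.03 to 1.55 and that of Rdh10 from -0.38 to 1.04 (95%, on the log2 scale), so that neither no change nor a rise of more than 1 was outside them. The RPE markers were 7000 to 8436 CPM in Ctrl and 8512 to 9112 CPM in KO, with 0 of 10 markers called in this set. The fibroblast markers were 1246 to 2374 CPM in Ctrl and 124 to 315 CPM in KO (median log2 fold change -2.98, 0 of 10 called), and their part in the values of the 9 genes was not tested.

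Against CreCtrl, Lrat, Rdh11 and Rdh10 were called higher in KO by edgeR, 3 of 9 genes beside 3.6% of all 15963 genes. The estimates ran from 0.17 (Ttr) to 1.26 (Lrat), with a median of 0.71 beside -0.02 over all genes. DESeq2 called 7 of the 9, all but Rdh5 and Ttr, where it called 10.1% of its genes higher. Every KO library was above both CreCtrl libraries for 9 of 9 genes, as for 34.8% of all genes, but for 7 of 9 when levels were shares of all counts, the exceptions being Rdh5 and Ttr. The count changed when 1 library was left out, a fit in which the spread comes from the group that keeps 2 libraries. The lone library is there assumed to vary like that group, so effect sizes are given here. With 1 library left out, the log2 fold change was 0.91 to 1.66 for Lrat, 0.75 to 1.08 for Rdh10 and 0.66 to 1.15 for Rdh11. The rod markers moved with this comparison, from 725 and 2631 CPM in the CreCtrl libraries to 475 and 486 CPM in KO (10 of 11 called lower), and so did the fibroblast (9 of 10 called lower), myeloid (6 of 8), endothelial (5 of 8), cone (2 of 5) and erythrocyte (2 of 5) markers. Of the 10 RPE markers, 0 were called higher and 1 lower. The part of these markers in the result was not tested.

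**Figure D3:**
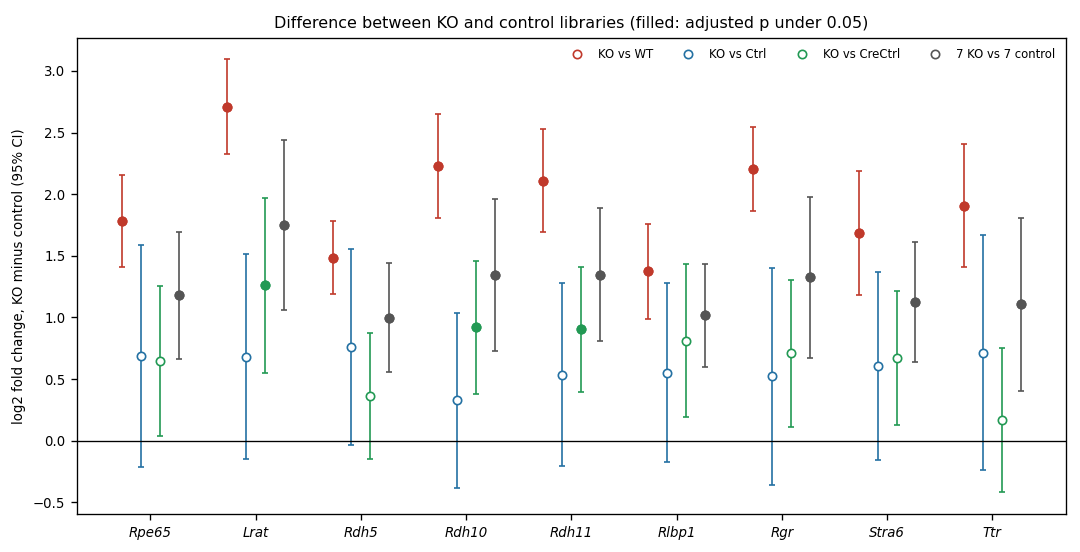
Log2 fold change of each of the 9 genes between KO and control libraries, with its 95% interval, in the 3 sets and over all 14 libraries. Filled points passed an adjusted p of 0.05 in edgeR's test and open points did not. The KO vs WT points lie between 1.37 and 2.71, all filled, the KO vs Ctrl points are all open, and 3 of the KO vs CreCtrl points are filled. Ttr has the lowest KO vs CreCtrl point, which is negative with library size alone.

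With all 14 libraries in 1 fit and the set as a covariate, all 9 genes were called higher in the 7 KO than in the 7 control libraries, beside 21% of 14925 genes. The log2 fold change ran from 1.00 (Rdh5, standard error 0.21, adjusted p = 0.0023) to 1.75 (Lrat, 0.32, adjusted p = 0.00121), with a median of 1.18. For each of the 9 genes, all 7 KO libraries were above all control libraries of their own set, which held for 8.33% of the 14423 genes tested in all 3 sets. The calls rested on the WT set: in the other 4 KO and 4 control libraries, 0 of 9 genes were called (adjusted p 0.0578 for Lrat to 0.257 for Ttr), where edgeR called 0.532% of all genes higher. There the estimates ran from 0.42 to 0.95 with a median of 0.62, and 8 of 9 genes had an unadjusted p under 0.05, beside 10.6% of all genes that were higher at that limit.

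The difference between KO and control was larger in the WT set than in the Ctrl set for 4 of 9 genes in a test of the difference itself, beside 4.34% of all genes. These were Lrat (2.18 on the log2 scale, standard error 0.37, adjusted p = 0.0117), Rdh10 (2.04, 0.30, adjusted p = 0.00784), Rgr (1.82, 0.31, adjusted p = 0.0117) and Rdh11 (1.72, 0.33, adjusted p = 0.0156). Scaled to the RPE markers, these differences were 1.07 for Lrat (adjusted p = 0.0149), 0.96 for Rdh10 (0.0111), 0.72 for Rgr (0.025) and 0.62 for Rdh11 (0.0806), which left 3 of the 4 called. The count was 7 without WT replicate 3. It fell without Ctrl replicate 2 and without KO replicate 2 of the Ctrl set, fits that leave 1 library in a group. The difference between KO and control was larger in the WT set than in the CreCtrl set for 4 of 9 genes, beside 1.12% of all genes: Ttr (1.85, standard error 0.38, adjusted p = 0.0356), Rgr (1.60, 0.31, adjusted p = 0.0303), Rdh10 (1.42, 0.29, adjusted p = 0.0373) and Rdh5 (1.23, 0.28, adjusted p = 0.0462). Scaled to the RPE markers, they were 0.92 for Ttr (adjusted p = 0.0467), 0.65 for Rgr (0.0435), 0.48 for Rdh10 (0.152) and 0.27 for Rdh5 (0.451), which left 2 called. This count was 2 without WT replicate 1, and 0 without WT replicate 2 or any 1 of the 3 KO libraries of the WT set. It also fell without CreCtrl replicate 1 or either KO library of the CreCtrl set, fits that leave 1 library in a group. The shares of all genes called are not given for the scaling to the RPE markers or with 1 library left out. A shift in overall calling therefore cannot be told from one in the 9 genes. Between the Ctrl and CreCtrl sets, 0 of 9 genes differed by edgeR's or DESeq2's test, beside 0% of all genes by edgeR, and 0 of 9 did so at an unadjusted p under 0.05, beside 8.75% of all genes. The differences between these 2 sets ran from -0.62 (Rdh10, standard error 0.32) to 0.51 (Ttr, standard error 0.41), which leaves changes of that size undetected.

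Per length of exon, which allows genes to be compared, Ttr was the most abundant member in every group, at 7815 ± 2183 CPM per kb in WT and 32435 ± 3002 in the KO libraries of that set (SD, n = 3). By counts per kb it ranked 1 or 2 among 42329 genes in each of the 14 libraries. In the KO libraries of the WT set it was followed by Rgr (3454 ± 126 CPM per kb), Rpe65 (2578 ± 125), Rlbp1 (2104 ± 153), Rdh5 (1705 ± 154), Rdh10 (642.5 ± 13.5), Lrat (420 ± 32.6) and Stra6 (403 ± 22.5), with Rdh11 last (56.1 ± 4.99). Of the neighbours in this order, only Lrat and Stra6 overlapped. The exon length of Rdh5 includes the 720 bases shared with Bloc1s1, so its place depends on how reads there were counted, which is not given. In WT, Rlbp1 (735 ± 136), Rgr (680 ± 82.9) and Rpe65 (678 ± 125) overlapped, and Lrat (58.0 ± 9.73) was below Stra6 (113 ± 33.0). The rank of Lrat among all genes was 510 to 715 in WT and 34 to 75 in the 7 KO libraries, and that of Rgr 19 to 22 and 5 to 7. In Ctrl and CreCtrl these ranks were 56 to 101 for Lrat and 5 to 9 for Rgr, near those in KO.

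**Figure D4:**
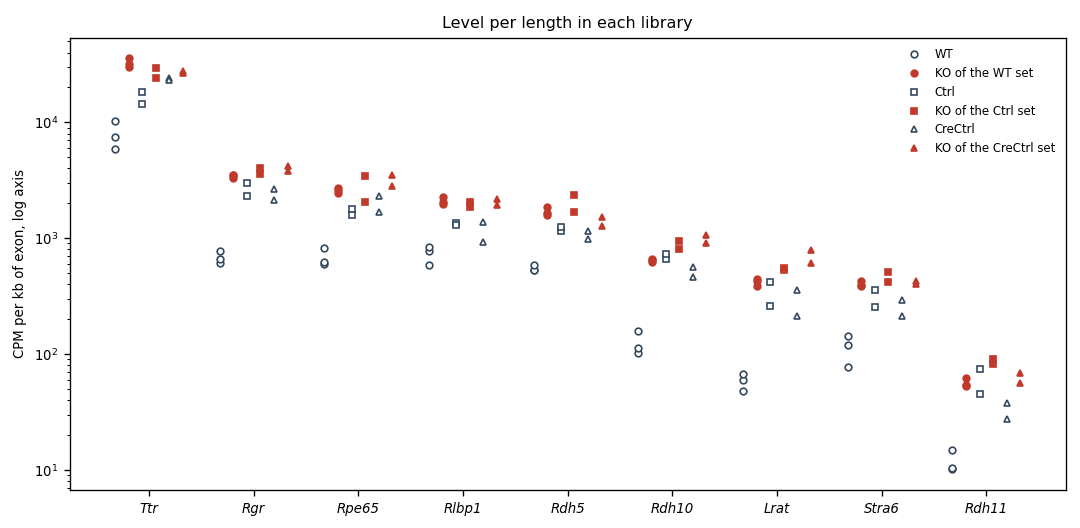
Level of each member per kb of exon in every library, in CPM per kb on a log axis, ordered by the mean over the 14 libraries. Circles are the WT set, squares the Ctrl set and triangles the CreCtrl set, with KO filled in red and controls open. Ttr is the highest member in every library and Rdh11 the lowest, and the WT libraries lie apart from the other 11, most of all for Lrat and Rdh10.

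The groups differed in how the members were weighted against each other. As a share of the summed CPM per kb of the 9 genes, Lrat took 0.545 ± 0.0448% in WT and 0.960 ± 0.0723% in its KO libraries, without overlap (0.494 to 0.576% and 0.903 to 1.04%). Rlbp1 took 6.89 ± 0.661% in WT and 4.81 ± 0.195% in its KO libraries, again without overlap (6.22 to 7.54% and 4.64 to 5.02%). In the CreCtrl set Rlbp1 went the other way, from 3.09 to 4.17% in CreCtrl to 5.01 to 5.26% in KO. In the Ctrl set it overlapped (5.21 to 5.62% in Ctrl and 4.50 to 5.48% in KO). Lrat overlapped in the Ctrl set (1.00 to 1.81% and 1.31 to 1.48%) and rose in the CreCtrl set (0.713 to 1.08% and 1.57 to 1.90%). In the CreCtrl set, Ttr took 75.6 ± 3.14% in CreCtrl and 68.1 ± 0.961% in KO (SD, n = 2). Its share overlapped in the WT set (69.6 to 74.9% in WT and 72.6 to 75.0% in KO) and in the Ctrl set (61.6 to 70.6% in Ctrl and 64.8 to 71.3% in KO). These shares are descriptions and were not tested.

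The genes whose level over the 14 libraries was most like the members' mean (Pearson r of log2 CPM with the mean of the standardised values, among 9971 genes of at least 10 CPM) were Rrh, Spg21, Tmem98, Idh3a, Clstn1, Slc25a4, Bsg, Bcat1, Cspg5 and Osbp2, with r from 0.996 (Rrh) to 0.991 (Osbp2). Rrh encodes peropsin, an opsin of the RPE, and Bsg encodes basigin, a partner protein of lactate transporters. Bsg ran from 906 to 6037 CPM and Rrh from 144 to 728 CPM over the libraries. The points share their libraries and their 3 sets, and most of the spread lies between WT and the rest, so that r is given as a description. Over the same libraries, Lrat and Rgr had an r of 0.992 with each other and of 0.947 after each of the 6 groups was centred, whereas Rdh5 and Rpe65 had 0.878 and -0.31.

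Of 48 other retinoid genes listed by role, 38 had a mean of at least 1 CPM. Against WT, 36 were tested, of which 7 were called higher and 11 lower in KO, where 16.1% of all genes were called higher and 19% lower. Retsat, which encodes retinol saturase, rose by 2.01 on the log2 scale from 21.2 ± 0.703 to 85.5 ± 7.43 CPM (SD, n = 3, adjusted p = 3.83e-05), Adh5 by 1.77, Degs1, which encodes a desaturase with reported retinol isomerase activity, by 1.75 and Rrh by 1.65. Abca4, which encodes a flippase of retinal conjugates, rose by 1.30, Rdh14 by 0.89 and Scarb1, which encodes a lipid and carotenoid receptor, by 0.74.

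The genes that fell against WT belonged mostly to retinoic acid metabolism and signalling. Aldh1a2, which makes retinoic acid, fell from 158 ± 5.34 to 8.47 ± 6.53 CPM (log2 fold change -4.22, adjusted p = 0.000311), and Cyp26a1, which breaks it down, from 137 ± 59.5 to 5.99 ± 2.24 CPM (-4.51, adjusted p = 9.17e-05). Crabp2, a retinoic acid-binding protein gene, had a log2 fold change of -4.08 and Cd36, a scavenger receptor gene, of -4.06. Lpl (-2.74), Aldh1a1 (-2.18) and Cyp26b1 (-1.76) fell as well. Of 6 retinoid receptor genes, Rara (-1.97), Rarg (-1.95), Rarb (-1.21) and Rxra (-0.56) were called lower, and Rxrb (-0.37) and Rxrg (0.39) were not. The fibroblast markers moved in the same direction in these libraries, and their part in these values was not tested.

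Against CreCtrl, 39 of the 48 were tested, with 0 called higher by edgeR and 10 lower, where 3.6% of all genes were called higher and 12.2% lower. At an unadjusted p under 0.05, 6 were higher, beside 16.3% of all genes, and DESeq2 called 6 higher, beside 10.1% of its genes. Of the lower genes, 3 belong to the photoreceptors: Rbp3 (-3.36), Opn1mw (-2.68) and Rdh12 (-1.76), with the rod markers lower as given above. The others were Cyp26a1 (-4.23), Cd36 (-3.18), Crabp2 (-3.08), Aldh1a2 (-2.77), Aldh1a3 (-2.12), Rarg (-1.24) and Rara (-1.18). Aldh1a1 (0.97, adjusted p = 0.0504), which fell against WT, Retsat (0.78, adjusted p = 0.0543) and Degs1 (0.74, adjusted p = 0.0597) had positive values that did not pass. Against Ctrl, 41 were tested and edgeR called 0 in either direction, as it called 0% of all genes lower, with 0 higher and 10 lower at an unadjusted p under 0.05, where 0.713% of all genes were higher and 11.4% lower. DESeq2 called 0 higher and 11 lower, where it called 6.69% of its genes lower. Ctrl replicate 2 held 5205 counts of Adh1, 3116 of Adh7, 2624 of Rbp2 and 1242 of Aldh1a3, and Ctrl replicate 1 held 581, 523, 284 and 144, where the 2 KO libraries of that set held 0 to 6 of each.

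**Figure D5:**
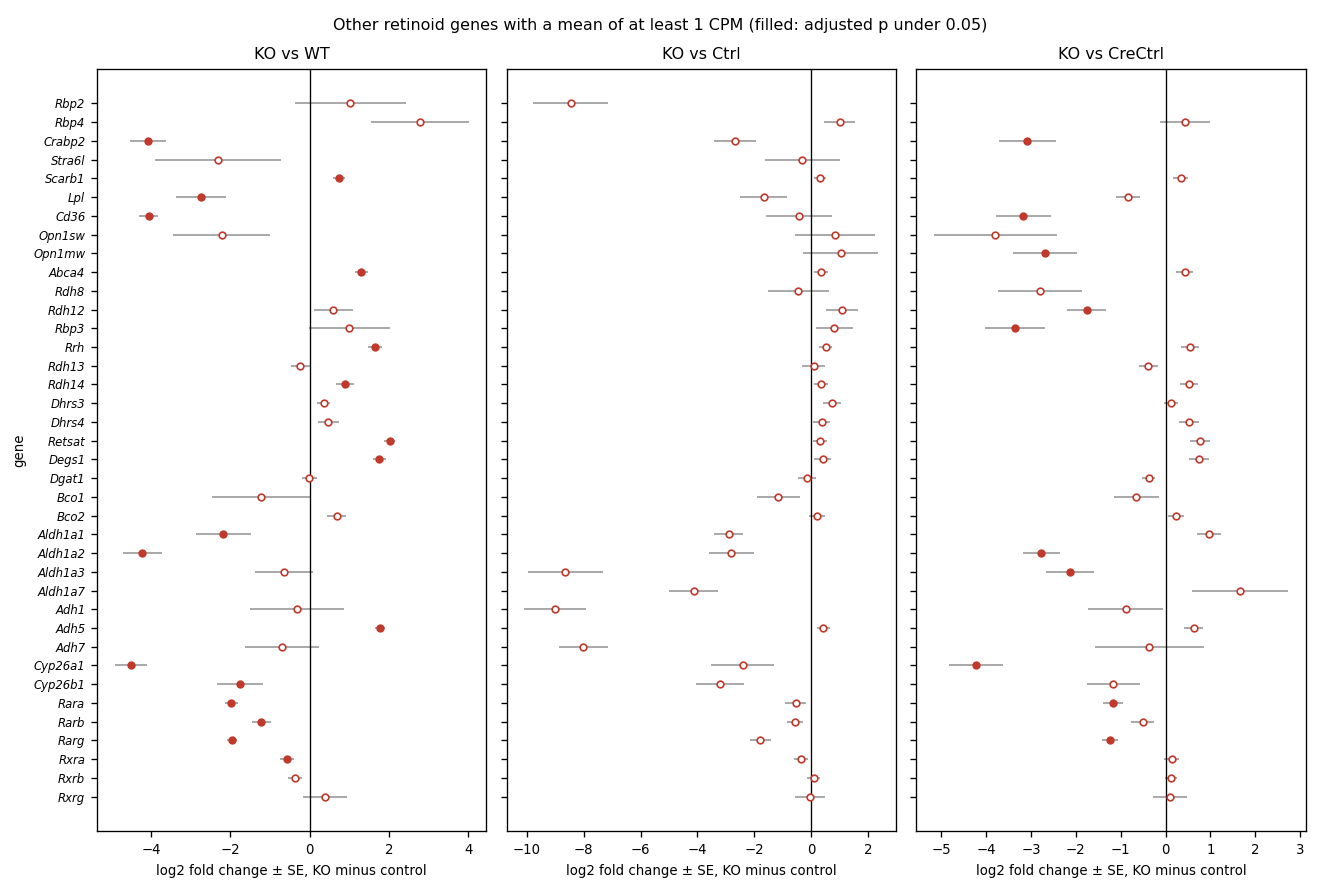
Log2 fold change between KO and control, with its standard error, of the 38 other retinoid genes with a mean of at least 1 CPM, in the 3 comparisons. Filled points passed an adjusted p of 0.05 in edgeR's test, and genes not tested in a comparison have no point. Against WT the filled points lie on both sides of 0 (7 higher and 11 lower), against CreCtrl all 10 are lower, and against Ctrl none is filled.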

How the data were processed

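The data are read counts per Ensembl gene for 14 RPE libraries, 1 a mouse, in 6 groups taken from the sample labels. The RPE was loosened with hyaluronidase and trypsin, and stranded poly(A) libraries were sequenced as pairs of reads. Alignment by the authors was to GRCm38 (STAR 2.5.2), and the deposited values are raw counts, not normalized. The submitters' processing notes also name bcl2fastq 2.19, Cufflinks 2.1.1 and HTSeq 0.11.2. The strand setting of the counting and the annotation release are not given in the sources used here. Gene names, positions and exon lengths came from GENCODE M21, which held 42329 of 42687 genes.

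Each comparison took the libraries of 1 set and ran edgeR's quasi-likelihood test (R 4.3.3, edgeR 4.0.16) on TMM-normalized counts after filterByExpr, with Benjamini-Hochberg adjustment over all genes tested, and genes with an adjusted p under 0.05 were called. Standard errors were taken as the log2 fold change over the root of F, and intervals are at 95%. The study's tool, DESeq2 (1.42.0), was run as an alternative. One fit took all 14 libraries with the set as a covariate, and another took the 6 groups to test differences between sets. CPM in comparisons carry the TMM factors of their set, and levels per kb, marker sums and plotted levels those of all 14 libraries. The tests were run on simulated data with 200 changed genes, with the same spread set for every gene and not fitted to the real replicates. There edgeR recovered 64 of 100 changes of 1 log2 unit against WT, 41 of 100 against Ctrl and 35 of 100 against CreCtrl. Of 100 changes of 2 log2 units it recovered 100, 98 and 99 in the same order. The smallest p that exact permutation (two-sided) allows for 1 gene is 0.1 with 3 against 3 mice and 0.333 with 2 against 2. No replicate pair of a group agreed within sampling noise.

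The members, the retinoid list and the marker lists were chosen with earlier results of these data known. Some genes of the retinoid and marker lists are not reported here and were left out of their counts and sums. Named genes were the 9 members, Clic4, the listed retinoid genes of at least 1 CPM and the 10 genes most like the members. The RPE markers used for scaling, other markers where needed and Bloc1s1, for its overlap, were named as well. Alternatives were other scalings (relative log expression, library size alone, the RPE markers), other filters on low counts (at least 1 count in all, or 10 in every library), 1 fit of all libraries, the replicate number as a block, and leaving out each library, of which those for the 14-library fits and the fit without the WT set were chosen after seeing the data. Same-numbered libraries did not deviate together (correlation of deviations -0.02 to 0.21), and the labels tie the numbers to nothing shared, so the main fits carry no block.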

Additional observations from a re-analysis of the deposited data

Results flagged for a closer look

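Stra6 stood at 2946 CPM (scaled over all 14 libraries) in KO replicate 2 of the Ctrl set, apart from the other 6 KO libraries at 2243 to 2495 CPM. Its gap to the nearest library was 0.642 of the range of the 7, and chance alone marks about 1 in 20 such groups. The KO minus control difference was larger in the WT set than in the Ctrl set for Lrat by 2.18, Rdh10 by 2.04, Rgr by 1.82 and Rdh11 by 1.72 on the log2 scale, each by a test of the difference itself. It was larger in the WT set than in the CreCtrl set for Ttr by 1.85, Rgr by 1.60, Rdh10 by 1.42 and Rdh5 by 1.23. Scaled to the RPE markers, the first 4 were 1.07, 0.96, 0.72 and 0.62 in the same order, with Rdh11 no longer called, and the last 4 were 0.92, 0.65, 0.48 and 0.27, with Rdh10 and Rdh5 no longer called. The shares of all genes called on that scale are not given, so a shift in overall calling cannot be told from one in these genes. Control genotype and set cannot be told apart in these differences.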

How the results depend on the processing

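Against WT, all 9 genes stayed called under all 14 alternatives, with a largest adjusted p of 0.0125 (Rlbp1, scaled to the RPE markers). Their median log2 fold change was 1.67 with library size alone and 0.99 scaled to the RPE markers, and 1.73 to 2.16 with 1 library left out. Against Ctrl, 0 of 9 were called under all 12 alternatives, and the median was 0.40 to 0.78 with 1 library left out. Against CreCtrl, the number called was 5 with all genes of at least 1 count, where 1862 of 24610 genes were called higher. It was 7 by DESeq2, where 10.1% of genes were called higher. It also changed with the library left out, in fits that leave 1 library in a group. The median there was 0.49 with library size alone and 0.53 to 0.91 with 1 library left out, and Ttr turned to -0.055 with library size alone. Over the alternatives, the adjusted p against CreCtrl was 1.43e-05 to 0.213 for Lrat, 1.3e-05 to 0.351 for Rdh10 and 0.000101 to 0.153 for Rdh11. Over all 14 libraries the median was 0.94 with library size alone and 0.73 scaled to the RPE markers, and without the WT set it was 0.62 with 0 of 9 called.

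The number of genes whose difference was larger in the WT than in the Ctrl set was 8 with all genes of at least 1 count, 9 by DESeq2 and 1 to 7 with 1 library left out. Scaled to the RPE markers, that difference turned to -0.22 for Rdh5 and -0.11 for Rlbp1. For the WT against the CreCtrl set the number was 2 scaled to the RPE markers, 8 with all genes of at least 1 count, 8 by DESeq2 and 0 to 6 with 1 library left out, and Rlbp1 turned to -0.28 scaled to the RPE markers. The shares of all genes called are not given beside these counts, and the cause was not tested in any of these cases.

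With the replicate number as a block, the number of the 9 genes called was 9 against WT, 0 against Ctrl and 2 against CreCtrl, and the number of all genes called was 4857, 113 and 3824. Not every library correlated best with its own number. Without the block, 575 genes were called higher and 1954 lower against CreCtrl, 2490 higher and 2929 lower against WT, and 0 against Ctrl. With all genes of at least 1 count these were 4793 against CreCtrl and 1658 against Ctrl. Scaled to the RPE markers, 454 of 8742 called genes were higher against WT, and with library size alone 1716 of 5658. Against CreCtrl, 219 of 2976 were higher with library size alone. The median of all genes shifted to -0.32, -0.11 and -0.24 against WT, Ctrl and CreCtrl with library size alone, and to -1.02 against WT scaled to the RPE markers. With 2 mice a group, intervals over 1 log2 unit wide limit the Ctrl and CreCtrl comparisons.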

Other observations

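Cone markers summed to 22.5 to 49.0 CPM in WT against 33.5 to 53.0 CPM in its KO libraries, 18.2 to 43.5 in Ctrl against 44.8 to 49.3, and 37.4 to 91.9 in CreCtrl against 34.0 to 35.3. Melanocyte and Schwann cell markers, of which some are pigment genes that the RPE also expresses, summed to 254 to 332 CPM in WT against 564 to 639, 499 to 786 in Ctrl against 538 to 880, and 474 to 522 in CreCtrl against 557 to 649. Erythrocyte markers stood apart in 1 CreCtrl library, at 751 CPM against 109 CPM in the other.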
